A study of Mus musculus with 8 samples.

Results

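The genes described here encode the machinery that docks, primes and fuses synaptic vesicles. They were taken by symbol as the synaptotagmins (Syt), complexins (Cplx), synapsins (Syn), syntaxins (Stx), syntaxin-binding proteins (Stxbp), vesicle-associated membrane proteins (Vamp), the SV2 vesicle proteins, the Rab3 GTPases, the Rims and Unc13 active zone proteins, and Snap23, Snap25, Snap29, Snap47 and Snap91. The rule found 68 of the 14884 genes in the deposited count table, and all 68 were abundant enough to be tested. Measured values played no part in the rule. Each of 4 male wild-type mice, 3 months old, received LNA218, a locked nucleic acid inhibitor of the microRNA miR-218-5p, at one cortical site and NC, a scrambled control, at the matching site across the midline. Polyadenylated RNA from both injected sites in somatosensory cortex was sequenced 10 days later, which gives 8 libraries of 17409900 to 25154700 estimated counts. LNA218 was on the right in 3 mice and on the left in mouse 35. Both groups carry an injection, and no uninjected tissue stands beside them. The labels give no measure of the microRNA itself.

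At a synapse, a syntaxin and SNAP-25 on the plasma membrane zip together with a VAMP on the vesicle, and this SNARE complex drives fusion. Syntaxin-binding and Unc13 (Munc13) proteins template its assembly, complexins clamp and then promote fusion, and synaptotagmins trigger it when calcium enters. Rab3 and Rims tether vesicles at the active zone, synapsins hold the reserve pool, SV2 proteins sit in the vesicle membrane, and Snap91 (AP180) is a clathrin adaptor that recovers the membrane afterwards. A microRNA such as miR-218-5p lowers its targets through matches between its seed (bases 2 to 8) and their 3′ untranslated regions.

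The mature sequence shows what the inhibitor was made to block, and the sites beneath it show where the seed meets the release machinery. In the microRNA the capitals mark the seed. In the sites they mark the letters that pair with it (AAGCACA, called a 7mer-m8), plus, where present, an A opposite its first base (AAGCACAA, an 8mer). Each site is printed as the 21 bases that would lie opposite the microRNA, on the gene's own strand.
mmu-miR-218-5p: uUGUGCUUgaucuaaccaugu
Syt13, 8mer: ccattccacataaAAGCACAA
Sv2a, 8mer: ccagcaggtccgaAAGCACAA
Rims1, 8mer: ttaaggtcaatgcAAGCACAA
Unc13a, 7mer-m8: gatgggctctcaaAAGCACAc

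RefSeq on GRCm38.p6 places the microRNA at chr5:48223966-48223986 (Mir218-1) and chr11:35616840-35616860 (Mir218-2), both on the plus strand. All sites lie in 3′ untranslated exon sequence of GENCODE M21 on GRCm38. The capitals fall at chr1:22287156-22287163 in Rims1 and chr8:71629173-71629179 in Unc13a, both on the minus strand, and at chr2:92955629-92955636 in Syt13 and chr3:96194892-96194899 in Sv2a on the plus strand. The sites shown are 3 of the 4 8mers among the members and the 7mer-m8 of the priming factor Unc13a.

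In the control hemispheres, several families were dominated by 1 paralog. Levels between genes are given as CPM (counts scaled to a common library size) per kilobase of the GENCODE M21 transcript with the longest coding sequence. Vamp2, the vesicle SNARE, had the highest level at 1104 ± 54.8, followed by Snap25 at 986 ± 58.8 (CPM per kilobase, SD, n = 4 for these and the following levels). The NC ranges of this pair, 1054 to 1179 and 931 to 1045, did not overlap. This order depends on the transcript lengths used, 1113 bases for Vamp2 and 2116 for Snap25. Without the length the order was the opposite, with 1969 to 2211 CPM for Snap25 in NC, above every NC library of Vamp2. Vamp2 made up 84.4% of the Vamp family's summed level and Snap25 82.1% of that of the Snap23, Snap25, Snap29 and Snap47 group. Rab3a made up 84.5% of Rab3 and Unc13a 94.1% of Unc13. The non-neuronal SNAREs Snap23 and Vamp8 stood at 3.12 ± 0.37 and 8.58 ± 1.77.

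Other families were shared more evenly. Among the synaptotagmins, the calcium sensor Syt1 led at 283 (range 261 to 300), ahead of Syt11 at 186 ± 4.97 and Syt7, the sensor of slower release, at 178 ± 10.6. The Syt11 and Syt7 ranges overlapped, so their order is not resolved. Syt2, a fast sensor that predominates in hindbrain, stood at 13.3 ± 1.75 and Syt15, the lowest member, at 0.20 ± 0.04. Stx1a, the plasma membrane partner of SNAP-25, stood at 133 ± 13.8. Cplx1 exceeded Cplx2 at 357 to 418 against 278 to 284 over the NC libraries. Per library, without the length, the order of the complexins was the opposite, with 850 ± 54.7 CPM for Cplx1 and 1380 ± 14.4 CPM for Cplx2, because the Cplx2 transcript used here is 4928 bases long and that of Cplx1 2189. Syn1 and Syn2 stood at 255 ± 6.19 and 207 ± 15.8, Sv2a and Sv2b at 126 ± 6.91 and 72.1 ± 7.76, and Rims3 and Rims1 at 45.5 ± 4.03 and 28.0 ± 2.50. Rims1 and Rims4 (27.0 ± 2.02) overlapped.

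**Figure D1:**
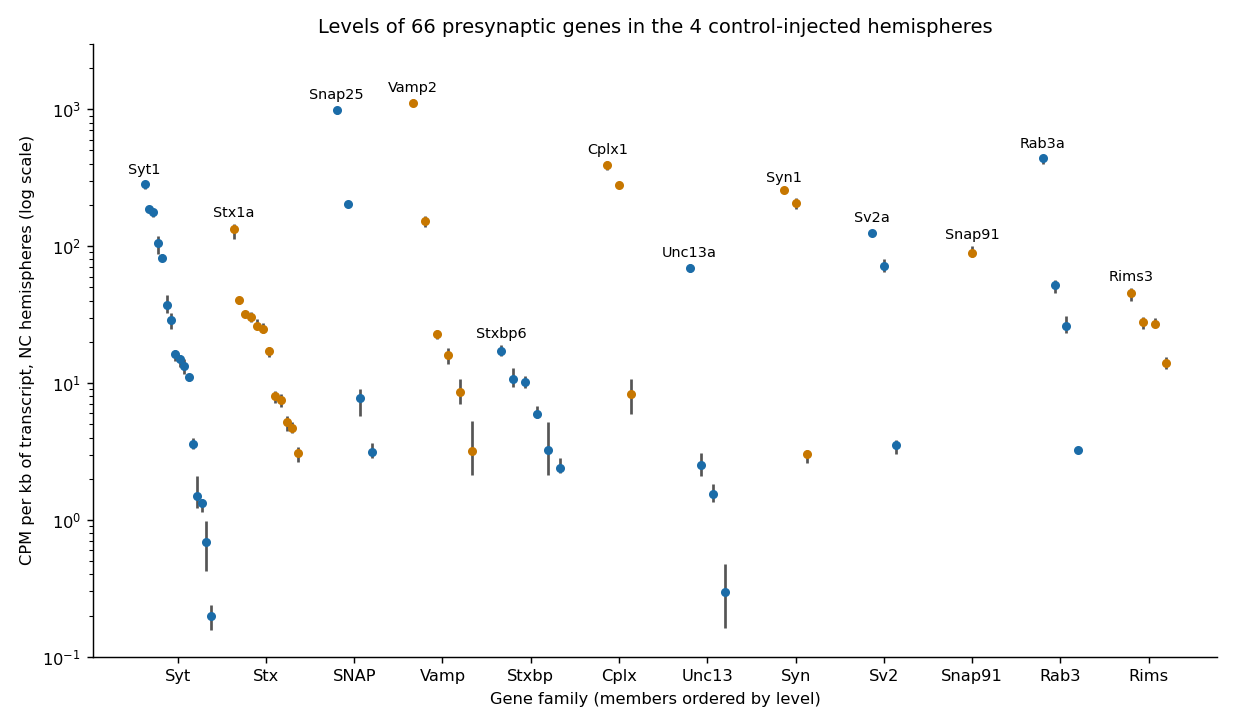
Level of 66 of the 68 genes in the 4 NC libraries, in CPM per kilobase of transcript on a log axis, by family, with the highest plotted gene of each family named. Points are means and lines run from the lowest to the highest NC library; in Unc13, Unc13a at 68.9 stands above Unc13b at 2.52, while Syn1 and Syn2 lie close together.

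Comparing LNA218 with NC within animals, 0 of the 68 members passed an adjusted p of 0.05 (edgeR, quasi-likelihood test blocked by animal, with Benjamini-Hochberg adjustment over all genes). The background is the same, since 0 of the 14506 genes tested passed (0%). The lowest adjusted p of a member was 0.999. DESeq2 and limma-voom also called 0 members. At an unadjusted p under 0.05 there were 0 members in either direction, against 1.1% of all genes higher and 0.6% lower. In the fit 26 members were higher in LNA218 and 42 lower, with a median log2 fold change of -0.026 against -0.0096 over all genes tested. Of all genes tested, 6840 were higher and 7666 lower. The members' median was -0.0051 without mouse 34, -0.0058 without mouse 36, -0.045 without mouse 33 and -0.050 without mouse 35, and with a term for the hemisphere it was 0.0030, on the other side of 0. Because LNA218 was on the left in mouse 35 alone, the hemisphere term gives that animal as much weight as the other 3 together. The fold changes ran from -0.35 (Stxbp5l) to 0.48 (Vamp8), and 60 of the 68 lay within 0.25 of 0 on the log2 scale. So did 12555 of the 14506 genes tested. A missed threshold does not show that a level was unaltered, and the intervals say how much room is left. For 53 of the 68 members the 95% interval of the log2 fold change lay within -0.5 to 0.5. The same held for 8920 of the 14506 genes tested. As these are bulk libraries, fewer synaptic neurons in a sample and less of a transcript per neuron cannot be told apart.

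**Figure D2:**
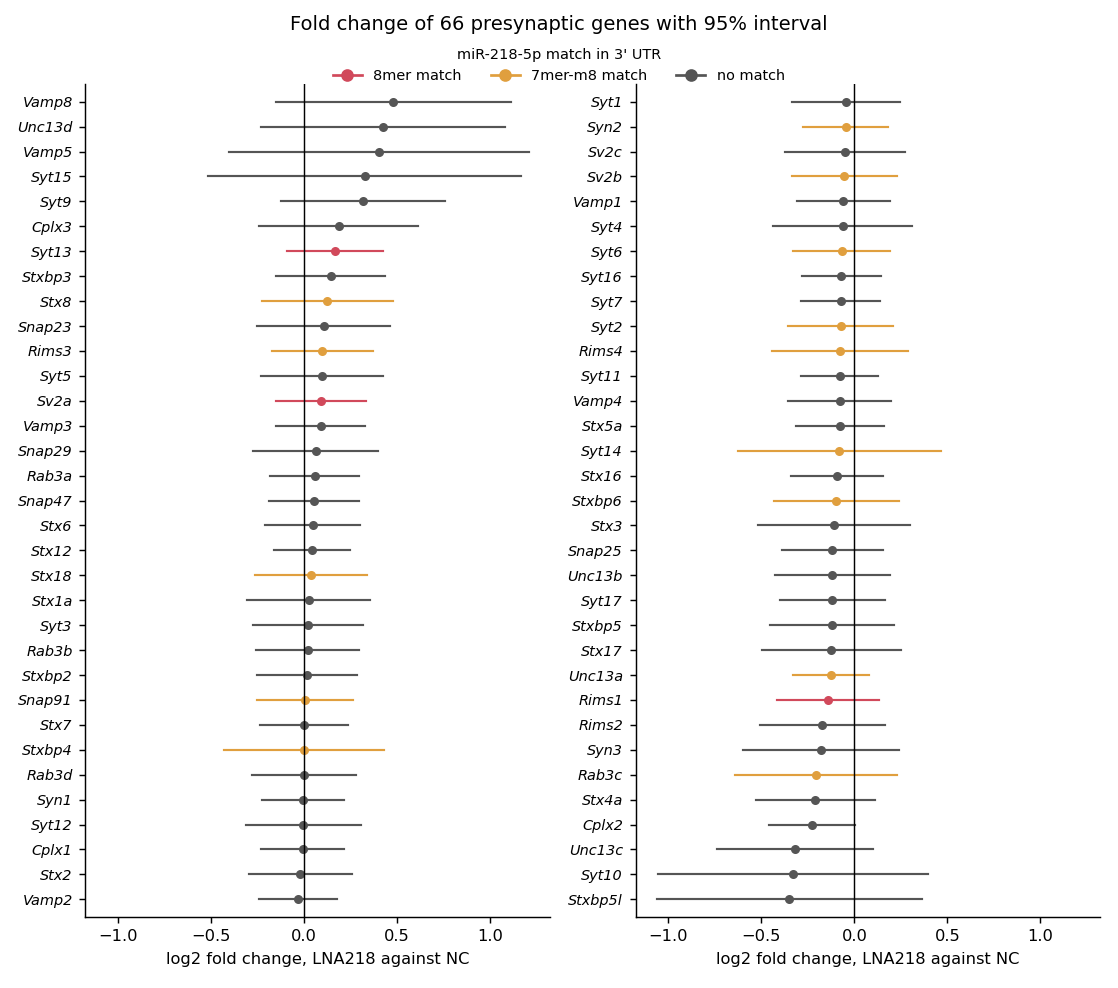
Log2 fold change (LNA218 against NC) of 66 of the 68 genes in the paired edgeR fit, ordered by size, with lines for the 95% interval and colours for the miR-218-5p match in the 3′ untranslated region. All 66 intervals include 0; the widest belong to genes with few counts such as Vamp5 and Syt15, and that of Cplx2, from -0.46 to 0.0024, reaches 0 only at its upper end.

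Cplx2 had the smallest p of the members. This complexin, a regulator of SNARE-driven fusion in forebrain neurons, had 1377, 1369, 1373 and 1401 CPM in the NC libraries of mice 33 to 36 and 1191, 1004, 1182 and 1366 CPM in the LNA218 libraries. The NC libraries lay within a narrow band and every LNA218 library was below it, so the groups did not overlap, by the least in mouse 36. The log2 fold change was -0.23 ± 0.099 (SE), with an unadjusted p of 0.0519 and an adjusted p of 0.999 (edgeR, quasi-likelihood). Among all genes tested, 0.648% had all LNA218 libraries below all NC libraries and 0.731% had all above, and among the members Cplx2 was the 1 below and 0 were above. Without mouse 34 the log2 fold change was -0.15. Its paralog Cplx1 had 916, 782, 855 and 849 CPM in NC and 845, 885, 887 and 767 CPM in LNA218, which overlap, and a log2 fold change of -0.0076 ± 0.096 (SE). Cplx3, a complexin of few cortical neurons and of retina, had 23.8 ± 5.92 CPM in NC and 26.6 ± 3.55 in LNA218 (SD, n = 4).

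The summed level of the 4 general neuron markers (Rbfox3, Tubb3, Map2 and Nefl) was 1677 to 1892 CPM in LNA218 and 1945 to 1986 CPM in NC, and lower in LNA218 in 4 of 4 animals. None of the 4 markers was at 0. Singly they were less uniform, since Tubb3 was higher in LNA218 in mice 34 and 35 and Map2 in mouse 33. Rbfox3 and Nefl were each lower in 4 of 4. The summed level of the 5 inhibitory neuron markers (Gad1, Gad2, Slc32a1, Pvalb and Sst) was 938 to 1037 CPM in LNA218 and 884 to 996 CPM in NC, and higher in LNA218 in 2 of 4 animals. The summed level of the meningeal fibroblast markers was 83.2 to 167 CPM in LNA218 and 48.2 to 76.2 CPM in NC, and higher in LNA218 in 4 of 4 animals, with all 5 markers above 0 in every library. Singly, Igf2, the largest part of the sum, Dcn and Slc13a4 were higher in LNA218 in 4 of 4. In mouse 36 Col1a1 was lower in LNA218, at 11.2 against 14.4 CPM, and Lum was level. The part of these markers in the value of Cplx2 was not tested.

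The other complexin partners and primers differed less clearly. Unc13a, the main priming factor at cortical synapses, had 379, 391, 420 and 369 CPM in NC and 331, 348, 422 and 333 CPM in LNA218 of mice 33 to 36. It was lower in 3 of 4 animals and level in mouse 35, with a log2 fold change of -0.13 ± 0.089 (SE). Unc13c, known mainly from cerebellum, stood at 13.6 ± 1.76 CPM in NC and 11.0 ± 1.94 in LNA218 (SD, n = 4), and its log2 fold change of -0.32 ± 0.18 (SE) rested on mouse 34, without which it was -0.11. Unc13d, a primer of granule release in immune cells, had 0.655 to 1.93 CPM in NC and 0.788 to 2.08 CPM in LNA218, with a log2 fold change of 0.42 ± 0.28 (SE).

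Of the 7 syntaxin-binding proteins, 3 were higher and 4 lower, with a median log2 fold change of -0.0011. Stxbp5l (tomosyn-2), which holds SNAREs in an inactive complex, had the widest spread of the family. Its within-animal log2 differences were 0.20, -1.65, 0.27 and -0.25 in mice 33 to 36, and without mouse 34 its log2 fold change turned from -0.35 to 0.092. Its relative Stxbp5 (tomosyn-1) had 82.3 to 113 CPM in NC and 71.5 to 101 in LNA218.

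Of the 13 syntaxins, 5 were higher and 8 lower, with a median log2 fold change of -0.0052. The neuronal syntaxin Stx1a had 296, 245, 315 and 291 CPM in NC and 226, 348, 316 and 287 CPM in LNA218. Stx1a differed in opposite directions in mice 33 and 34 and hardly in the others. Its log2 fold change was 0.024 ± 0.14 (SE). Stx16, a Golgi syntaxin, differed by -0.092 ± 0.11 (log2 ± SE), and by -0.027 without mouse 34, -0.058 without mouse 35 and -0.16 without mouse 36.

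Stx4a, a plasma membrane syntaxin of many cell types, is the 1 member that the authors' deposited table calls, against 0.235% of its 14884 genes. The authors' deposited table gives it a log2 fold change of -0.35 with an adjusted p of 0.00886. In the counts it had 45.4, 40.9, 48.0 and 41.9 CPM in NC and 31.6, 41.1, 35.3 and 45.4 CPM in LNA218 of mice 33 to 36. LNA218 was lower in mice 33 and 35, level in mouse 34 and higher in mouse 36, and the groups overlapped. In the paired fit the log2 fold change was -0.21 ± 0.14 (SE) with an adjusted p of 0.999 (edgeR, quasi-likelihood). Leaving out 1 animal at a time moved it from -0.32 (without mouse 36) to -0.10 (without mouse 33), and it was -0.13 without mouse 35. The unadjusted p was 0.168 in the paired fit, 0.0214 without mouse 34 and 0.0139 after correcting for transcript GC content and length (edgeR, quasi-likelihood). Under that correction the within-animal log2 differences were -0.40, -0.39, -0.43 and 0.088 in mice 33 to 36, and the log2 fold change was -0.28. Without mice 34 and 36 together it was -0.48 with an unadjusted p of 0.00279 and an adjusted p of 0.665 (edgeR, quasi-likelihood). The authors' deposited table has 4 of the 68 members higher at an unadjusted p under 0.05, against 2.83% of all its genes, and 1 lower, against 7.02%. In the authors' deposited table Syt13, Rims3 and Syt1 were among the members higher at an unadjusted p under 0.05, with log2 fold changes of 0.13, 0.14 and 0.12, and none of these passed after adjustment. For Syt1 the authors' deposited table and the paired fit (-0.044) had opposite signs, and over the members the sign was shared for 44 of 68. The sources used here do not give the model terms behind that table.

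The remaining SNAREs were led by SNAP-25. Snap25 had 2211, 2175, 1969 and 1990 CPM in NC and 2275, 1577, 1751 and 2159 CPM in LNA218 of mice 33 to 36, so it was higher in mice 33 and 36 and lower in mice 34 and 35. Its log2 fold change was -0.12 ± 0.12 (SE). Vamp2 had 1313, 1197, 1173 and 1233 CPM in NC and 1226, 1191, 1264 and 1128 CPM in LNA218, with a log2 fold change of -0.032 ± 0.091 (SE) and a 95% interval of -0.24 to 0.18. Vamp8, a SNARE of endosomes and secretory cells, had the largest fold change, 0.48 ± 0.27 (log2 ± SE). It had 5.80, 5.91, 8.84 and 7.58 CPM in NC and 4.90, 17.1, 9.47 and 10.6 CPM in LNA218. Its highest library was LNA218 of mouse 34, and without that animal its log2 fold change was 0.13. It was 0.71 without mouse 33, 0.61 without mouse 35, 0.48 without mouse 36 and 0.42 after correcting for transcript GC content and length. Vamp5, known from muscle and other non-neuronal cells, stood at 1.99 ± 0.88 CPM in NC and 2.66 ± 1.13 in LNA218 (SD, n = 4), with its highest library, 4.08 CPM, also LNA218 of mouse 34. Its log2 fold change was 0.40 ± 0.35 (SE), and -0.011 without that animal. The summed level of 7 choroid plexus markers (Ttr, Folr1, Kl, Otx2, Clic6, Aqp1 and Kcne2) was 2607 CPM in LNA218 of mouse 34 and 1703 CPM in LNA218 of mouse 36, and 22.6 to 84.5 CPM in the other 6 libraries. Kcne2 was at 0 in 1 library. The part of this tissue in the values of Vamp8 and Vamp5 was not tested.

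**Figure D3:**
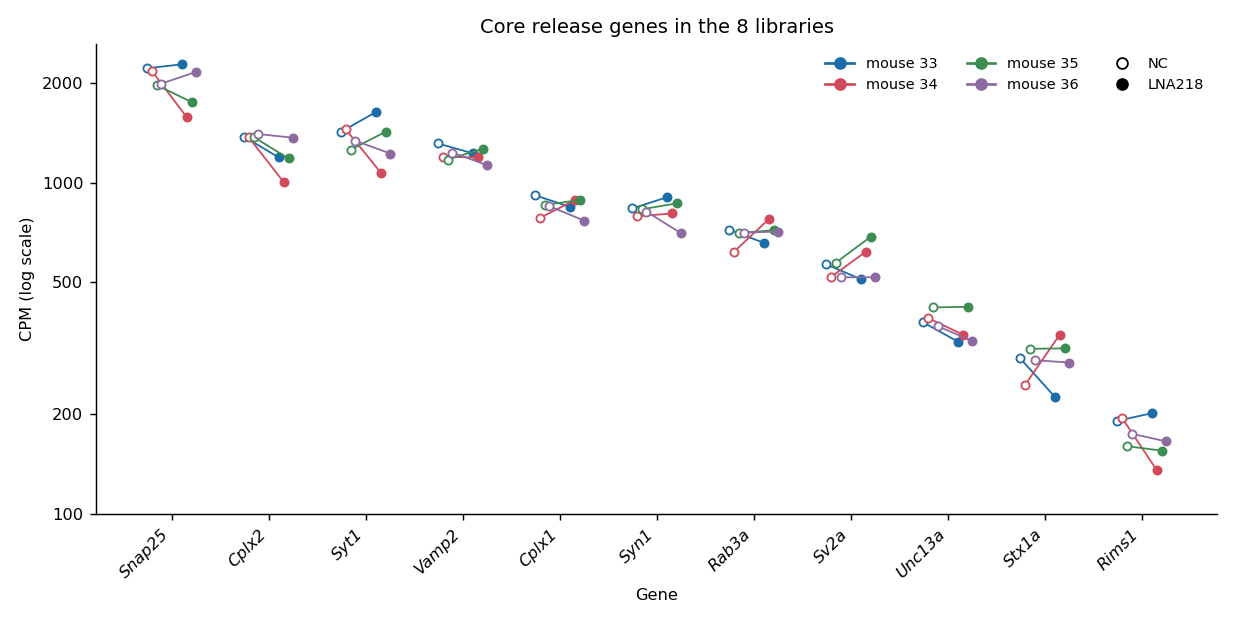
CPM on a log axis of 11 core release genes in the 8 libraries, open circles for NC and filled circles for LNA218, with a line for each animal. Cplx2 has its 4 NC libraries between 1369 and 1401 CPM and every LNA218 library below them; for most other genes the difference had opposite directions in mice 33 and 34.

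Of the 16 synaptotagmins, 5 were higher and 11 lower, with a median log2 fold change of -0.065. Syt1 had 1421, 1447, 1256 and 1337 CPM in NC and 1633, 1073, 1424 and 1224 CPM in LNA218 of mice 33 to 36. Its lowest and its highest library were both LNA218, and its log2 fold change was -0.044 ± 0.13 (SE). Syt13, an atypical synaptotagmin whose C2 domains do not bind calcium, carries an 8mer site. It had 327, 292, 307 and 305 CPM in NC and 304, 402, 354 and 329 CPM in LNA218. It was higher in mice 34, 35 and 36 and lower in mouse 33, with a log2 fold change of 0.17 ± 0.11 (SE). Without mouse 34 the value was 0.075, and without mouse 33 it was 0.26. Syt9, a fast calcium sensor, had 5.07 ± 0.47 CPM in NC and 6.49 ± 1.99 in LNA218 (SD, n = 4), and a log2 fold change of 0.32 ± 0.19 (SE), which was 0.16 without mouse 36 and 0.48 without mouse 33. Syt6 was lower in 4 of 4 animals by small amounts, with log2 differences of -0.014, -0.067, -0.17 and -0.020.

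Among the 8 Rab3 and Rims genes, Rab3a had 687.7 ± 47.2 CPM in NC and 716 ± 48.0 in LNA218, and Rims1, which carries an 8mer site, had 191, 195, 160 and 175 CPM in NC and 201, 136, 155 and 166 CPM in LNA218 of mice 33 to 36. For Rims1 the library that differed most was LNA218 of mouse 34, and its log2 fold change of -0.14 ± 0.12 (SE) was -0.012 without that animal. Rims2, the other long Rims protein, differed by -0.17 ± 0.15 (log2 ± SE). Of the vesicle proteins, Syn1 had 819 ± 19.9 CPM in NC and 819 ± 87.5 in LNA218 (SD, n = 4). Sv2a, the binding site of the antiepileptic drug levetiracetam, carries an 8mer site and had 567, 519, 573 and 518 CPM in NC and 511, 618, 686 and 518 CPM in LNA218. It was higher in mice 34 and 35, level in mouse 36 and lower in mouse 33, with a log2 fold change of 0.092 ± 0.10 (SE). It was 0.17 without mouse 33, 0.042 without mouse 34 and 0.035 without mouse 35. Syn3, the low-abundance synapsin, had 7.14 ± 0.69 CPM in NC and 6.38 ± 1.59 in LNA218 (SD, n = 4).

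Counted by animal, 0 of 68 members were higher in LNA218 in 4 of 4 mice, where 4.58% of all genes tested were. Lower in 4 of 4 mice were 2 members, Cplx2 and Syt6, which is 2.94% against 4.05% of all genes. For mice 33 to 36 in turn, the members' median within-animal log2 differences were -0.034, -0.068, 0.028 and -0.0067, against 0.00056, 0.018, -0.0035 and -0.0068 for all genes tested.

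**Figure D4:**
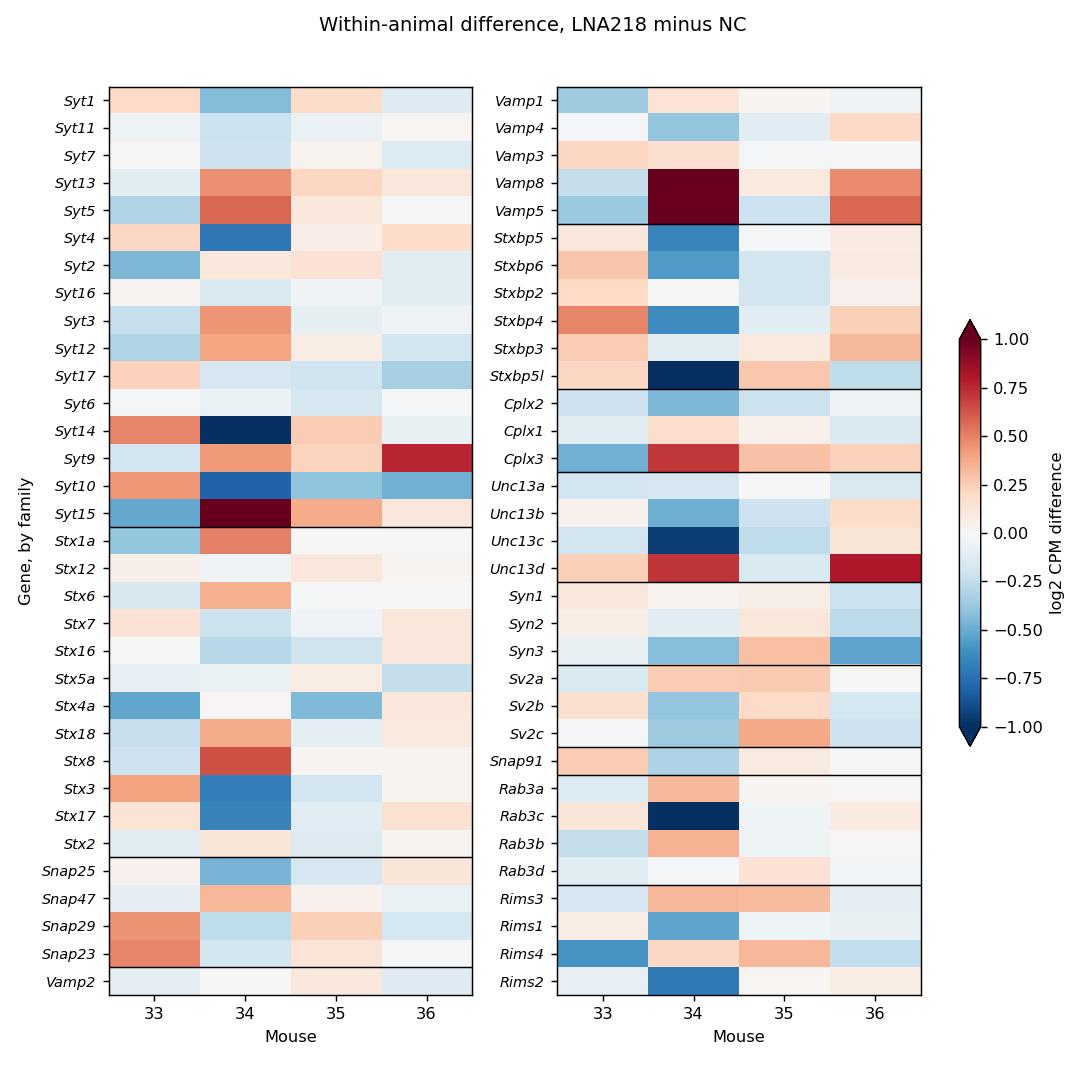
Within-animal difference in log2 CPM (LNA218 minus NC) of 66 of the 68 genes in mice 33 to 36, grouped by family and ordered within a family by CPM in NC; red is higher and blue lower in LNA218, and values past 1 in either direction take the end colour. The column of mouse 34 has the strongest colours, with red and blue in the same families and often the opposite colour in mouse 33.

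Within an animal, the differences of the members varied with base composition and, in mouse 34, also with transcript length. In mouse 34 the differences had an SD of 0.56 over the 68 members, and the SDs of mice 33, 35 and 36 were 0.26, 0.18 and 0.23. Their rank correlation with the GC content of the transcript was 0.65 in mouse 34 and -0.57 in mouse 33, and the values for mice 35 and 36 were 0.11 and -0.30. These correlations are across 68 genes that share a library and are not independent replicates, and over all genes with a GC value the figures were 0.64, -0.49, 0.18 and -0.16 in mice 34, 33, 35 and 36. With transcript length the members' rank correlations were 0.20, -0.44, 0.10 and -0.014 in mice 33 to 36. Over all genes with a GC value they were 0.26, -0.48, 0.10 and -0.20. The parts of GC content and length in the differences were not tested apart. Of the 34 members with the lower GC content, from 40.3% to 51.1%, 5 were higher in LNA218 in mouse 34 and 23 in mouse 33. Of the 34 with the higher GC content, 25 were higher in mouse 34 and 7 in mouse 33. Across the members the differences of mice 33 and 34 had a rank correlation of -0.65. Cplx2, with a GC content of 53.7%, was lower in both mice 33 and 34. After correcting for transcript GC content and length, its log2 differences were -0.18, -0.46, -0.28 and 0.052 in mice 33 to 36. It was then no longer lower in mouse 36. Under that correction its log2 fold change was -0.22, with an unadjusted p of 0.0211 and an adjusted p of 0.94 (edgeR, quasi-likelihood).

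**Figure D5:**
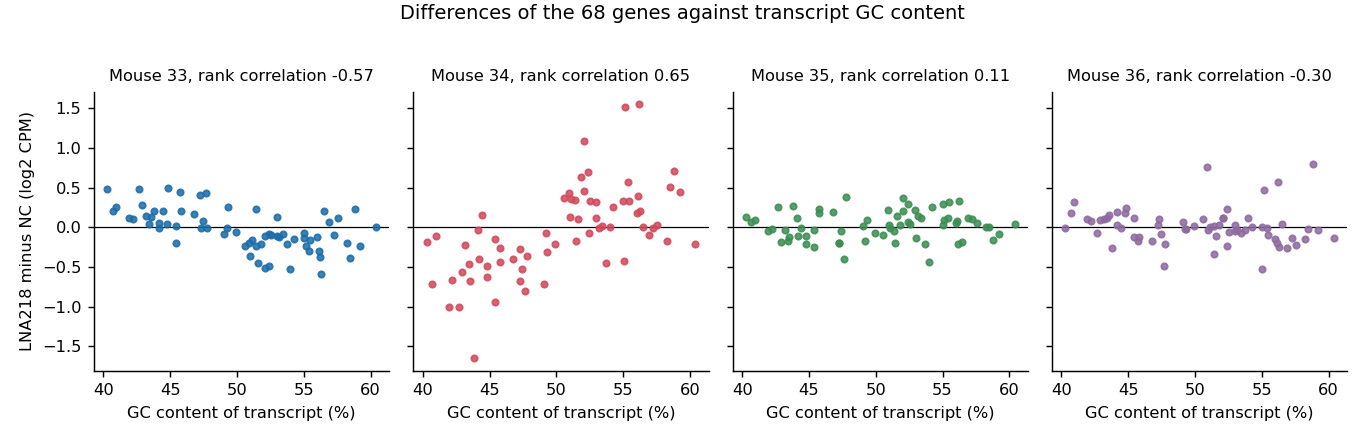
Within-animal difference in log2 CPM (LNA218 minus NC) of each of the 68 genes against the GC content of its transcript in percent, 1 panel per mouse. Points climb with GC content in mouse 34 and descend in mouse 33, while those of mice 35 and 36 show weaker relations, with rank correlations of 0.11 and -0.30.

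The balance between paralogs differed most in mouse 34 for Snap25 and Sv2a. Snap25 made up 83.4%, 74.6%, 78.9% and 83.3% of its group in LNA218 of mice 33 to 36, against 82.4%, 83.3%, 81.3% and 81.5% in NC. Sv2a made up 56.9%, 68.9%, 67.1% and 65.8% of the SV2 level in LNA218, against 62.0%, 58.6%, 66.2% and 63.0% in NC. The paralogs differ in GC content, with 43.4% for Snap25 and 52.5% for Snap47, and 54.2% for Sv2a and 46.8% for Sv2b. With the GC and length correction, the log2 differences in mouse 34 went from -0.46 to -0.17 for Snap25 and from 0.33 to 0.080 for Snap47. For Sv2a they went from 0.25 to 0.17 and for Sv2b from -0.40 to -0.033. The part of GC content in the shares was not tested. Rims3, a short Rims protein, made up 43.1 ± 3.13% of the Rims level in LNA218 and 39.7 ± 3.20% in NC (SD, n = 4). Its share was higher in 4 of 4 animals, by 3.39 ± 4.37 percentage points, and that of Syt7 was lower in 4 of 4, by -0.75 ± 0.59. For Rims3 the shares were 38.7%, 45.6%, 45.1% and 43.1% in LNA218 of mice 33 to 36. In NC they were 38.3%, 35.9%, 41.9% and 42.8%, so mouse 34 differed most and mice 33 and 36 were nearly level. Syt7 was nearly level in mouse 33, at 17.67% against 17.70%. Of the 67 shares compared, Rims3 was the 1 higher and Syt7 the 1 lower in 4 of 4. For Rims3 and Syt7 the exact sign-flip test over animals gave p = 0.125 (two-sided), the smallest that 4 animals allow, and an adjusted p of 0.961. That p is fixed once all 4 differences share a sign, so it adds nothing to the count of animals. By likeness of pattern, the members closest to Syt1 in log2 CPM were Sv2b, Snap91 and Sv2c, with Pearson coefficients of 0.91, 0.90 and 0.86 over the 8 libraries. These values are a description, since 4 animals give 2 libraries each, and the transcripts of Syt1 and these genes have GC contents of 45.8%, 46.8%, 49.3% and 47.8%.

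A miR-218-5p match was present in 19 of the 66 members with an annotated 3′ untranslated region (28.8%), against 14.3% of the 13886 tested genes that have one. An 8mer was present in 4 (6.06%), against 4.12%. The members' 3′ regions are also longer, with a median of 1846.5 bases against 1004, and per 10000 bases of 3′ region there were 1.30 matches in members and 1.14 in all genes. Motifs were sought on the transcript strand alone, and every 8mer is also counted as a 7mer-m8. Of the 19 members with a match, 7 were higher in LNA218 and 12 lower, with a median log2 fold change of -0.047, against -0.0076 for the 47 members without one. Over all genes the same medians were -0.040 and -0.0029. Without mouse 34 the median of the 19 members was 0.024, with a hemisphere term 0.028 and with the GC and length correction 0.0061, all on the other side of 0. The value with a hemisphere term leans on mouse 35, the only animal with LNA218 on the left. Of the 4 members with an 8mer, Syt13 and Sv2a were higher and Rims1 lower, and the median of the 4 was 0.13, against -0.034 for the 572 genes with an 8mer. Their differences had a median of -0.016, 0.29, 0.21 and -0.019 in mice 33 to 36, so the higher values came from mice 34 and 35. With 4 genes this is a list of values, and no test was made of it.

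A wider list of presynaptic genes was counted in the same way. Of 63 genes listed for the active zone, vesicle membrane, transmitter loading, SNARE recycling and endocytosis, 60 were tested. None passed an adjusted p of 0.05 or an unadjusted p of 0.05 (edgeR, quasi-likelihood), and DESeq2 and limma-voom called 0 after adjustment. In the fit 22 were higher and 38 lower, with a median log2 fold change of -0.020. The 3 lower genes with the smallest p were Doc2b, a calcium sensor of spontaneous release, at -0.24 ± 0.11, the endocytic scaffold Itsn2 at -0.32 ± 0.17 and the active zone protein Erc2 at -0.20 ± 0.14 (log2 ± SE). The 3 higher ones were the clathrin light chain Clta at 0.16 ± 0.12, the AP2 adaptor subunit Ap2a1 at 0.13 ± 0.11 and Sncb, which encodes beta-synuclein, at 0.17 ± 0.16. Of the 60, 1 was higher in 4 of 4 animals, against 4.58% of all genes tested, and 0 were lower in 4 of 4, against 4.05%. The 1 was Atp6v0d1, a subunit of the proton pump that energises vesicle loading. Its log2 differences were 0.0075, 0.27, 0.026 and 0.013 in mice 33 to 36, so it was nearly level outside mouse 34.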

How the data were processed

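Bulk polyadenylated RNA was sequenced from 8 cortical samples, 4 per group, on an Illumina instrument. The authors deposited estimated counts per gene, of which 71.2% were not whole. The submitters' processing notes list Salmon, edgeR and GRCm39 without versions or roles; the sources used here name no annotation. A second deposited table held natural log values, each equal to ln(scaled CPM + 1). The authors' deposited comparison table gave log2 fold changes, likelihood-ratio scores, p-values and adjusted p-values.

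Estimated counts were rounded, filtered with filterByExpr (minimum count 10, 378 genes removed, 14506 kept), scaled by TMM and tested with edgeR 4.0.16 (R 4.3.3) using the quasi-likelihood test, the animal as a block and a threshold of 0.05. The pairing comes from the series' design, where both hemispheres belong to 1 animal. Nothing in the labels gives repeat samples of a hemisphere, so the error rests on differences between animals, with 3 residual degrees of freedom. The quasi-likelihood fit draws each gene's error toward a trend over all genes. A printed SE or interval is therefore not that gene's own spread between animals. Log2 CPM used a prior count of 2. Standard errors come from the F statistic, and 95% intervals from it and its degrees of freedom. The fitting step was tested on simulated data. Transcript length, GC content and 3′ regions came from GENCODE M21 (GRCm38), which matched all 68 members by symbol, and microRNA sequence from RefSeq (GRCm38.p6). GC content and length were known for 14387 tested genes.

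The named genes were the core release genes, the 2 members with the smallest p per role, members with an 8mer, Syt13, members alike in sign in 4 animals with a mean difference of at least 0.2, and, in each direction, 3 of the other presynaptic genes by p. The 3 members most like Syt1 were named too. Genes beyond this rule were chosen after their values were seen. The members and lists were chosen with earlier results of these data known. The alternatives were a fit without the block, DESeq2 size factors, DESeq2 1.42.0, limma-voom (limma 3.58.1), all genes kept whatever their counts, genes kept at CPM 1 in 4 libraries, a hemisphere term, a GC and length correction (splines with 5 degrees of freedom), a threshold of 0.1, and leaving out each animal. Leaving out mice 34 and 36 together was chosen after seeing the data. Some items are not reported singly here.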

Additional observations from a re-analysis of the deposited data

Results flagged for a closer look

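Of the 42 groups of 4 libraries formed by the 21 named members and the 2 conditions, 1 held a library that stood apart from the other 3, by a gap past Dixon's 95% critical value for 4 values. A rate of about 1 group in 20 is usual for this rule. Rab3a had 9.27 log2 CPM in the NC library of mouse 34, where the nearest other NC library had 9.46.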

How the results depend on the processing

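No member and no other presynaptic gene passed the threshold in any alternative run, a threshold of 0.1 included. Over all genes 13 passed with DESeq2, 13 without mice 34 and 36, and 0 to 12 with 1 animal left out, the 12 without mouse 34. Of 273 alternative values for the 21 named members, 244 had the main direction and 29 the opposite one, none past the threshold, and the cause was not tested. In the fit without the replicate block, Syn1 turned to 0.0014 (log2 fold change, as are the values that follow) and Cplx2 was -0.22 with an unadjusted p of 0.0426 (edgeR, quasi-likelihood), the 1 member under 0.05. With the pairing kept and a hemisphere term added, Cplx1 was 0.012, Syn1 0.017, Syt1 0.030 and Vamp2 0.015. The values with that term lean on mouse 35, the only animal with LNA218 on the left. With the GC and length correction, Rab3a was -0.015, Stx1a -0.031 and Syt1 0.012. Without mice 34 and 36, which leaves 2 animals, Rab3a was -0.054, Rims1 0.015, Stx1a -0.19, Stxbp5l 0.24, Syn1 0.085, Syn3 0.12, Syt1 0.19, Vamp2 0.0035, Vamp5 -0.29 and Vamp8 -0.056. Leaving out 1 animal at a time gave ranges across 0 for Cplx1 (-0.066 to 0.038), Rab3a (-0.028 to 0.12), Rims2 (-0.25 to 0.0082), Snap25 (-0.20 to 0.00028), Stx1a (-0.13 to 0.17), Stxbp5l (-0.57 to 0.092), Syn1 (-0.041 to 0.067), Syt1 (-0.12 to 0.089), Vamp2 (-0.078 to 0.00061) and Vamp5 (-0.011 to 0.64). The median of members with a seed match was 0.13 with 8mers alone, 0.046 without mice 34 and 36, 0.028 with the hemisphere term and 0.0061 with the GC and length correction. With 4 animals and a median SE of 0.12, differences of the size seen here were not resolved.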
